A study of Mus musculus with 4 samples.

Results

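Immediate early genes were followed through single-cell RNA sequencing of mouse cerebral cortex. They were 10 genes, taken by gene symbol out of 57126 features, and all 10 had counts in each of the 4 libraries. These are Fos (ENSMUSG00000021250), Fosb (ENSMUSG00000003545), Jun (ENSMUSG00000052684), Junb (ENSMUSG00000052837), Jund (ENSMUSG00000071076), Egr1 (ENSMUSG00000038418), Ier2 (ENSMUSG00000053560), Nr4a1 (ENSMUSG00000023034), Nr4a3 (ENSMUSG00000028341) and Atf3 (ENSMUSG00000026628). The study compared cortex of mice lacking Tsku, the gene of the secreted proteoglycan Tsukushi, with wild-type cortex at birth and during embryonic neurogenesis. The groups were P0 knockout, P0 wild type, E14.5 knockout and E14.5 wild type, where P0 is the day of birth and E14.5 is embryonic day 14.5. Each group was 1 library from 1 mouse. No label gives the strain or the kind of Tsku deletion. All 4 cortices went through the same trypsin digestion before single cells were coupled to barcoded capture beads with the Asteria kit.

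Immediate early genes are transcribed within minutes of a stimulus without new protein synthesis, because the factors that switch them on, among them CREB and serum response factor with its ETS partners, are already in the cell and are activated by calcium and kinase signals. In the nervous system they report neuronal firing, growth factor signalling and stress, and cell dissociation is known to switch many of them on, microglia included. Most of the proteins are transcription factors. Fos and Jun proteins pair as AP-1, Egr1 is a zinc finger factor, and Nr4a1 and Nr4a3 are orphan nuclear receptors. No cortex that skipped the dissociation was among the 4 libraries, so its part in the levels given here was not tested.

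The binding site of CREB is visible in the DNA just before the start of several of these genes. Promoter windows of 250 bases ending at the transcription start were read for 8 of the 10 genes, all but Egr1 and Ier2. They came from RefSeq on GRCm38.p6. The files' own build, GRCm39 in the submitters' processing notes, is another one, and no coordinate was carried between them. The windows of Fos, Nr4a1 and Nr4a3 are shown because Fos is the family's archetype and because the receptor pair came out with opposite patterns across cells and ages below; they were picked after the values were known. Capitals mark the half-site of the cyclic AMP response element, TGACG or its other strand CGTCA. All 3 windows lie on the plus strand, at chr12:85473640-85473889 for Fos, chr15:101266596-101266845 for Nr4a1 and chr4:48045055-48045304 for Nr4a3.
Fos: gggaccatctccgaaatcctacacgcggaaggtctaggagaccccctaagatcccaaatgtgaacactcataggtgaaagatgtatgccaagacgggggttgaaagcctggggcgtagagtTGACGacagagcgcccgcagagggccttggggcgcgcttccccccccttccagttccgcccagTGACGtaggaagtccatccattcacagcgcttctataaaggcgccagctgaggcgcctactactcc
Nr4a1: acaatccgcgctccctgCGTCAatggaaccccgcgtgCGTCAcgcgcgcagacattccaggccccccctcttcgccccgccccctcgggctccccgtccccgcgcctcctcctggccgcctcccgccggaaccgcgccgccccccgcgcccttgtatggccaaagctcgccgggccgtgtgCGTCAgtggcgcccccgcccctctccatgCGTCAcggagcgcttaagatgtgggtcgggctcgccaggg
Nr4a3: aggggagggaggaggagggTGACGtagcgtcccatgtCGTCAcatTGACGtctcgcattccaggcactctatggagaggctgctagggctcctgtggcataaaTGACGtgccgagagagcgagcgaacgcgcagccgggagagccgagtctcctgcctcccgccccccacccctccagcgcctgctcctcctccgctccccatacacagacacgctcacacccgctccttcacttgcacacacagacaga
Fos held 2 half-sites, 129 to 125 and 66 to 62 bases before the start, and a TATAAA box, found in 12.4% of all windows, 33 to 28 bases before it. Nr4a1 held 4, the nearest 40 to 36 bases before the start, and Nr4a3 also held 4, the nearest 147 to 143 bases before it. Of the other windows, Fosb, Junb and Atf3 had 1 each and Jun and Jund had 0. At least 1 half-site was thus found in 6 of 8 windows, against 17.8% of 32851 mouse promoter windows of the same length, and at least 3 half-sites were found in 0.688% of all windows. The CArG box of serum response factor (1.47% of all windows) and the AP-1 site TGANTCA (6.75%) were found in 0 of the 8. Sites further than 250 bases before the start, and any of Egr1 and Ier2, lie outside what was read. These 0 counts are close to the shares over all windows and do not show that the genes lack such sites. Both strands were searched, overlapping matches were counted separately, and a match is only a run of letters.

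The libraries differed in ways that bear on every comparison. Barcodes kept after filtering numbered 1436 in P0 knockout, 1047 in P0 wild type, 4107 in the library labelled E14.5 knockout and 620 in E14.5 wild type, and the median counts per barcode were 5060 in P0 knockout, 4807 in P0 wild type, 2829 in the library labelled E14.5 knockout and 7345.5 in E14.5 wild type. Tsku had 0 counts in P0 knockout and 42 in P0 wild type, but 74 in the library labelled E14.5 knockout and 54 in E14.5 wild type, so the Tsku transcript does not bear out that label, and it is called the library labelled E14.5 knockout throughout. The same library held 6707 counts of the female transcript Xist and 1 of the Y-linked Ddx3y, while the other 3 held at most 3 of Xist and at least 496 of Ddx3y. Sex, depth and label therefore cannot be told apart at E14.5. No barcode was shared between P0 knockout and another library, and the other 3 pairs shared 2 each. With 1 mouse per group there is no replicate error and no test. Levels are counts scaled to a fixed library total, the usual CPM unit, intervals in parentheses are 95% and cover counting error only, and differences are log2 ratios.

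Summed over the 10 genes, immediate early transcripts made up 4694 CPM (4649 to 4739) in P0 knockout, 3534 CPM (3487 to 3581) in P0 wild type, 1282 CPM (1264 to 1301) in the library labelled E14.5 knockout and 1862 CPM (1827 to 1898) in E14.5 wild type. Both newborn libraries were thus above both embryonic ones. The knockout was above the wild type at P0, and the library labelled knockout was below the wild type at E14.5.

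Within the Fos family, Fos had 1396 CPM in P0 knockout, 972 CPM in P0 wild type, 208 CPM in the library labelled E14.5 knockout and 422 CPM in E14.5 wild type. Fosb, which forms AP-1 like Fos and whose short form accumulates with lasting activity, had 220 CPM in P0 knockout, 129 CPM in P0 wild type, 36.1 CPM in the library labelled E14.5 knockout and 83.1 CPM in E14.5 wild type. Both genes therefore had the same order of libraries, with P0 knockout at the top and the library labelled E14.5 knockout at the bottom.

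Of the Jun family, Jun, the best known partner of Fos, had 831 CPM in P0 knockout, 604 CPM in P0 wild type, 288 CPM in the library labelled E14.5 knockout and 417 CPM in E14.5 wild type. Junb, a weaker activator than Jun, had 206 CPM in P0 knockout, 133 CPM in P0 wild type, 36.1 CPM in the library labelled E14.5 knockout and 50.7 CPM in E14.5 wild type. Jund, the family member known for steady expression in resting cells, went the other way with age and had 143 CPM in P0 knockout, 133 CPM in P0 wild type, 282 CPM in the library labelled E14.5 knockout and 255 CPM in E14.5 wild type. Jund was thus low at birth in both libraries, where Jun and Junb were high.

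Egr1, a zinc finger factor induced by growth factors and synaptic activity, had 1458 CPM in P0 knockout, 1204 CPM in P0 wild type, 297 CPM in the library labelled E14.5 knockout and 464 CPM in E14.5 wild type. Ier2, a short-lived nuclear regulator, had 306 CPM in P0 knockout, 234 CPM in P0 wild type, 91.4 CPM in the library labelled E14.5 knockout and 104 CPM in E14.5 wild type. These 2 genes shared the order of the Fos family.

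The nuclear receptor pair split. Nr4a1 had 78.4 CPM in P0 knockout, 66.7 CPM in P0 wild type, 5.76 CPM in the library labelled E14.5 knockout and 14.8 CPM in E14.5 wild type. Nr4a3 had 22.9 CPM in P0 knockout, 21.2 CPM in P0 wild type, 32.7 CPM in the library labelled E14.5 knockout and 44.2 CPM in E14.5 wild type, so its highest libraries were the embryonic ones. Atf3, a stress-induced factor of the ATF family, had 33.7 CPM in P0 knockout, 35.4 CPM in P0 wild type, 5.21 CPM in the library labelled E14.5 knockout and 6.60 CPM in E14.5 wild type, and the intervals of the 2 libraries overlapped at either age.

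**Figure D1:**
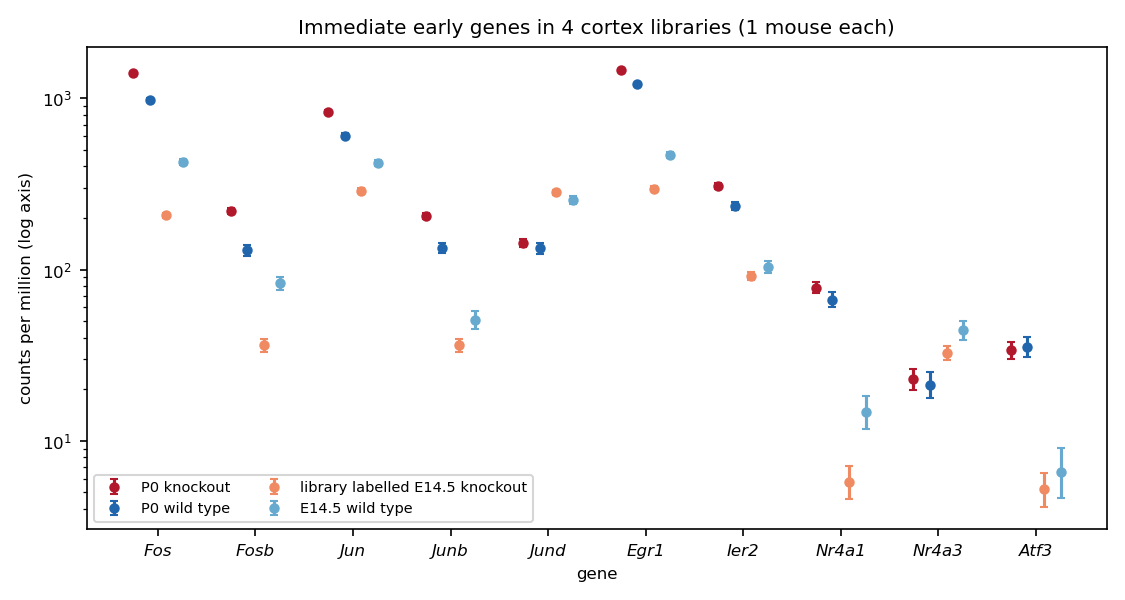
Level of each immediate early gene in the 4 libraries, in CPM on a log axis, with exact Poisson 95% intervals that cover counting error only. Fos, Egr1 and Junb stand highest in P0 knockout, whereas Jund and Nr4a3 stand higher in the E14.5 libraries than in the P0 libraries.

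The first question was whether the libraries labelled knockout differed from wild type. At P0, 9 of the 10 genes had a higher level in the knockout, with a median log2 ratio of 0.33 against 0.05 over the 13846 genes with enough counts. None of the 10 was past 2-fold, where 3.73% of all genes were past 2-fold higher and 1.03% past 2-fold lower. The interval lay above 0 for 7 of the 10, as it did for 21.7% of all genes, and below 0 for 0 of the 10, as it did for 14.2% of all genes. Such intervals are narrower for genes with more counts, and these shares were not matched for count level. The ratios ran up to 0.77 (0.65 to 0.89) for Fosb and 0.62 (0.50 to 0.74) for Junb, with Fos at 0.52 (0.48 to 0.57) and Jun at 0.46 (0.40 to 0.52). Jund at 0.10 (-0.02 to 0.23), Nr4a3 at 0.11 (-0.21 to 0.44) and Atf3 at -0.07 (-0.33 to 0.19) did not differ beyond counting error.

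At E14.5 the direction was the opposite. In the library labelled knockout 9 of the 10 genes had a lower level than in wild type, with a median log2 ratio of -0.51 against 0.06 over 14136 genes. Past 2-fold lower were 3 of the 10, against 4.22% of all genes, and past 2-fold higher were 0, against 2.29%. These 3 were Nr4a1 at -1.36 (-1.82 to -0.90), Fosb at -1.20 (-1.39 to -1.02) and Fos at -1.03 (-1.10 to -0.95). In E14.5 wild type 1 barcode held 18 of the 83 Nr4a1 counts. The top barcode held 39 of the 466 Fosb counts and 209 of the 2368 Fos counts there. Egr1 stood at -0.65 (-0.72 to -0.58) and Jun at -0.53 (-0.61 to -0.46). Jund, at 0.15 (0.06 to 0.24), was the gene with a higher level in the library labelled knockout. Capping every barcode at 3 counts of a gene turned the median to 0.10, and doing so after thinning each barcode to 2000 counts gave -0.33.

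The second question was age. In wild type 8 of the 10 genes had a higher level at P0 than at E14.5, with a median log2 ratio of 1.19 against 0.07 over 13270 genes. Past 2-fold higher were 6 of the 10, against 6.16% of all genes, and past 2-fold lower was 1, against 5.06%. Atf3 at 2.42 (1.92 to 2.97) and Nr4a1 at 2.17 (1.83 to 2.53) were above Junb at 1.40, Egr1 at 1.37, Fos at 1.20 and Ier2 at 1.17, and the gene past 2-fold lower was Nr4a3 at -1.06 (-1.38 to -0.75). Jund had a ratio of -0.94 (-1.07 to -0.81). The E14.5 wild-type level of Atf3 rested on 37 counts in 10 barcodes, with 13 of the counts in 1 barcode. That of Nr4a1 rested on 83 counts in 35 barcodes, with 18 of the counts in 1 barcode. With equal weight for each class compared, which leaves out radial glia, the wild-type median was -0.016, and with a cap of 3 counts of a gene per barcode it was 0.73. The same comparison of the libraries labelled knockout put 8 of the 10 past 2-fold higher at P0, against 12.9% of all genes, and 0 past 2-fold lower, against 6.15%, with a median of 2.40, or 1.01 with the cap. There the ratio was 3.77 (3.44 to 4.11) for Nr4a1, 2.75 (2.69 to 2.81) for Fos and 2.61 for Fosb, and again it was below 0 for Jund, at -0.98 (-1.07 to -0.89), and for Nr4a3, at -0.51 (-0.76 to -0.27). The libraries labelled knockout differ in sex as well as in age.

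To see which cells carried these transcripts, barcodes were assigned to classes by marker genes, none of them an immediate early gene, and the counts were summed per class and library. The microglia-like class (C1qa, Csf1r, Cx3cr1 and others) held 45 barcodes in P0 knockout, 21 in P0 wild type, 48 in the library labelled E14.5 knockout and 13 in E14.5 wild type. The class like radial glia and astrocytes, which share most markers, held 280 in P0 knockout, 164 in P0 wild type, 253 in the library labelled E14.5 knockout and 42 in E14.5 wild type. Projection neuron-like barcodes numbered 282 in P0 knockout, 331 in P0 wild type, 1054 in the library labelled E14.5 knockout and 208 in E14.5 wild type. Projection neurons were thus the largest gated class in each library. Inhibitory neuron-like barcodes numbered 138 in P0 knockout, 160 in P0 wild type, 811 in the library labelled E14.5 knockout and 126 in E14.5 wild type. Intermediate progenitor-like barcodes, cells on the way from radial glia to neurons, numbered 144 in P0 knockout, 82 in P0 wild type, 497 in the library labelled E14.5 knockout and 73 in E14.5 wild type. Oligodendrocyte precursor-like barcodes numbered 190 in P0 knockout and 83 in P0 wild type. Barcodes that no gate took numbered 302 in P0 knockout, 172 in P0 wild type, 1043 in the library labelled E14.5 knockout and 98 in E14.5 wild type.

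The classes differed far more than the libraries did. Microglia-like barcodes had a summed immediate early level of 15042 CPM in P0 knockout, 14863 CPM in P0 wild type, 9783 CPM in the library labelled E14.5 knockout and 10949 CPM in E14.5 wild type. The radial glia and astrocyte class followed with 8185 CPM in P0 knockout, 7836 CPM in P0 wild type, 2449 CPM in the library labelled E14.5 knockout and 2678 CPM in E14.5 wild type. Projection neurons had 1179 CPM in P0 knockout, 868 CPM in P0 wild type, 784 CPM in the library labelled E14.5 knockout and 1124 CPM in E14.5 wild type. The order microglia, then radial glia and astrocytes, then projection neurons held in the 3 libraries with at least 20 microglia barcodes, under the strict gate as well. The value of E14.5 wild type rests on 13 microglia barcodes and is given without comparison. Between them lay oligodendrocyte precursors with 5185 CPM in P0 knockout and 5057 CPM in P0 wild type. Intermediate progenitors had 3054 CPM in P0 knockout, 3435 CPM in P0 wild type, 1161 CPM in the library labelled E14.5 knockout and 1765 CPM in E14.5 wild type. Inhibitory neurons had 1575 CPM in P0 knockout, 1775 CPM in P0 wild type, 949 CPM in the library labelled E14.5 knockout and 1403 CPM in E14.5 wild type. Inhibitory neurons therefore stood above projection neurons and below intermediate progenitors in each library. In P0 wild type the microglia were 2.01% of barcodes and held 11.8% of the counts of the 10 genes. In P0 knockout the radial glia and astrocytes were 19.5% of barcodes and held 38.0% of these counts, whereas in E14.5 wild type they were 6.77% of barcodes and held 9.18%.

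For Fos itself, microglia had 3607 CPM in P0 knockout, 3510 CPM in P0 wild type, 2400 CPM in the library labelled E14.5 knockout and 3227 CPM in E14.5 wild type. Radial glia and astrocytes had 3083 CPM in P0 knockout, 3019 CPM in P0 wild type, 467 CPM in the library labelled E14.5 knockout and 517 CPM in E14.5 wild type. Projection neurons had 128 CPM in P0 knockout, 64.8 CPM in P0 wild type, 50.2 CPM in the library labelled E14.5 knockout and 131 CPM in E14.5 wild type. In both P0 libraries the Fos levels of the classes ran in the order microglia, radial glia and astrocytes, oligodendrocyte precursors, intermediate progenitors, inhibitory neurons and projection neurons, with no neighbours within counting error. In E14.5 wild type neither intermediate progenitors (568 CPM) and radial glia, nor inhibitory (147 CPM) and projection neurons, differed beyond it.

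Egr1 was also high in progenitors other than radial glia. At P0 its level in oligodendrocyte precursors was 2180 CPM in knockout and 2451 CPM in wild type, beside 2193 CPM in knockout and 2044 CPM in wild type in radial glia and astrocytes. Intermediate progenitors had 1366 CPM in knockout and 1747 CPM in wild type, and projection neurons 467 CPM in knockout and 314 CPM in wild type. At E14.5 the Egr1 level of inhibitory neurons, 338 CPM in the library labelled knockout and 592 CPM in wild type, was above that of radial glia in wild type, with 282 CPM, and close to it in the library labelled knockout, with 332 CPM.

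Jun had a level in embryonic radial glia close to that at birth. It had 1461 CPM in P0 knockout, 1471 CPM in P0 wild type, 1004 CPM in the library labelled E14.5 knockout and 1289 CPM in E14.5 wild type there. After thinning to 2000 counts, Jun was detected in a similar share of the radial glia and astrocyte barcodes of every library, 71.8% in P0 knockout, 75.6% in P0 wild type, 78.0% in the library labelled E14.5 knockout and 76.2% in E14.5 wild type. Its partner Fos was detected in 86.4% of these barcodes in P0 knockout and 81.1% in P0 wild type, but in 42.1% in the library labelled E14.5 knockout and in 21 of 42 barcodes in E14.5 wild type.

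Among neurons and progenitors of 1 library Jund varied less than Fos or Egr1 did. At E14.5 its level was 276 CPM in projection neurons, 303 CPM in inhibitory neurons, 281 CPM in intermediate progenitors and 381 CPM in radial glia of the library labelled knockout, and in wild type 246 CPM in projection neurons, 244 CPM in inhibitory neurons, 246 CPM in intermediate progenitors and 335 CPM in radial glia. At P0 the same 4 classes lay between 114 and 136 CPM in knockout and between 88.2 and 158 CPM in wild type.

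**Figure D2:**
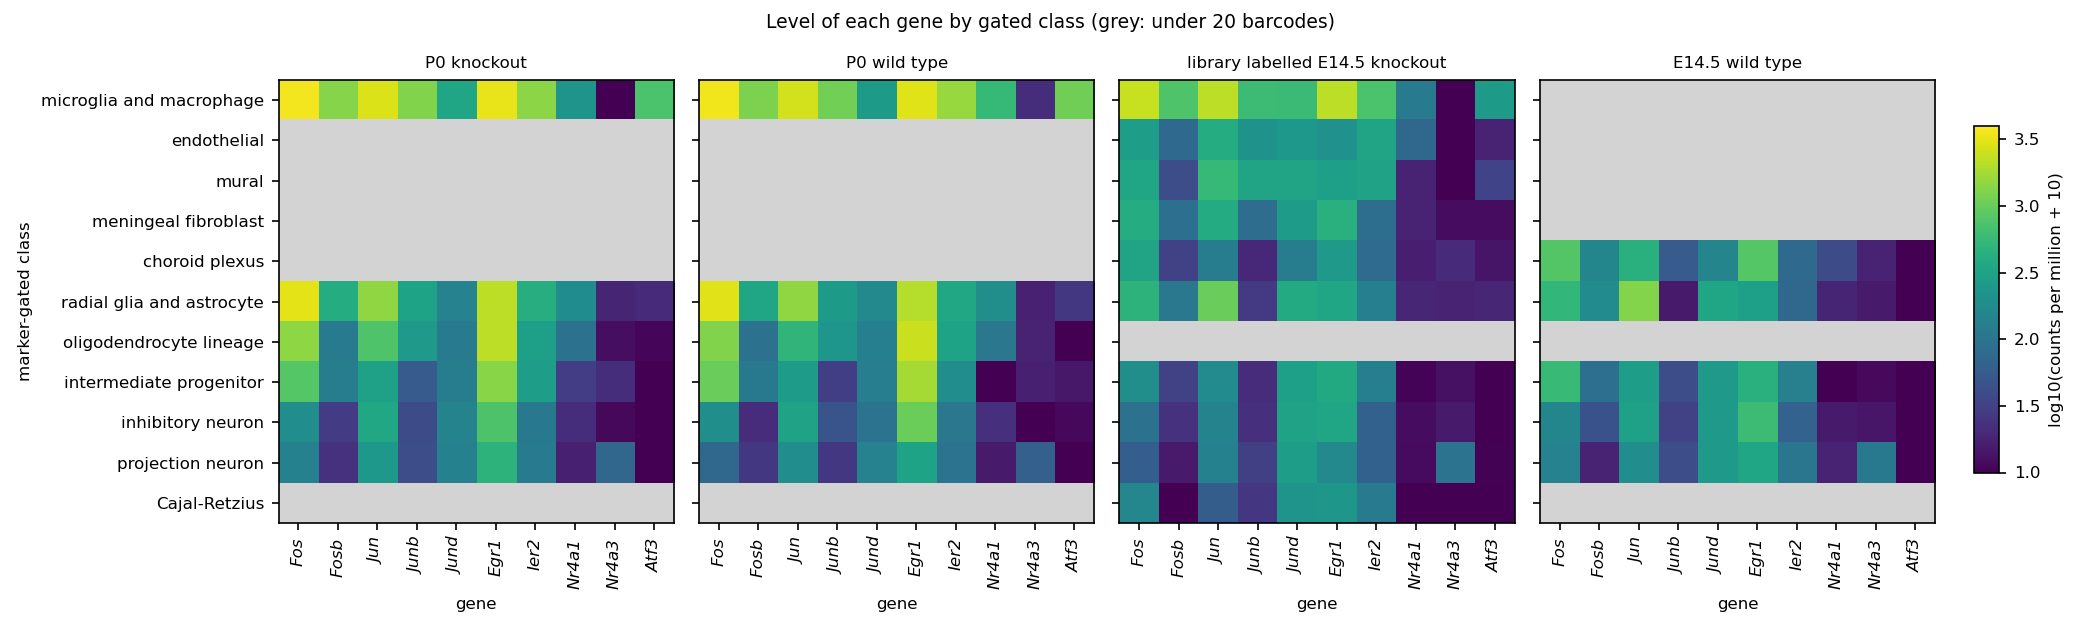
Level of each immediate early gene (columns) in each marker-gated class (rows), 1 panel per library, as log10(CPM + 10), with classes under 20 barcodes in grey. Atf3 is bright in microglia, Fos, Junb and Nr4a1 are brighter in radial glia and astrocytes at P0 than at E14.5, and Nr4a3 is brightest in projection neurons.

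Atf3 and Nr4a3 had nearly opposite distributions. Atf3 had 727 CPM in the microglia of P0 knockout, 1089 CPM in those of P0 wild type, 249 CPM in the library labelled E14.5 knockout and 277 CPM in E14.5 wild type. Those few barcodes held most of each library's Atf3 counts, 80.7% in P0 knockout, 86.4% in P0 wild type, 60.0% in the library labelled E14.5 knockout and 83.8% in E14.5 wild type. In projection neurons Atf3 had 0 counts in P0 knockout, which allows up to 1.85 CPM, 0 in P0 wild type, 1 in the library labelled E14.5 knockout and 0 in E14.5 wild type. Nr4a3 had 62.9 CPM in the projection neurons of P0 knockout, 52.0 CPM in those of P0 wild type, 87.4 CPM in the library labelled E14.5 knockout and 102 CPM in E14.5 wild type, which was 102 of the 204 Nr4a3 counts of P0 knockout and 73.4% in P0 wild type, 73.9% in the library labelled E14.5 knockout and 80.2% in E14.5 wild type. Microglia gave 2 Nr4a3 counts in P0 wild type and none in the other 3 libraries.

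Within projection neurons, Nr4a3 followed layer markers in the embryo. Barcodes where deep-layer markers (Bcl11b, Fezf2, Tbr1 and others) led had 130 CPM in the library labelled E14.5 knockout and 199 CPM in E14.5 wild type, whereas those where upper-layer markers (Cux1, Cux2 and others) led had 12.02 CPM in the library labelled E14.5 knockout and 28.8 CPM in E14.5 wild type. The log2 ratio of upper to deep was -3.43 (-4.40 to -2.60) in the library labelled E14.5 knockout and -2.79 (-3.43 to -2.20) in E14.5 wild type. At P0 it was -0.42 (-1.10 to 0.29) in knockout and 0.18 (-0.57 to 0.99) in wild type, so that no Nr4a3 difference was detectable there. Nr4a3 was not alone in this. Junb had ratios of -1.96 (-3.33 to -0.84) in the library labelled E14.5 knockout and -1.47 (-2.42 to -0.57) in E14.5 wild type. At P0 Junb stood at -2.37 in knockout and -0.62 (-1.90 to 0.76) in wild type. Egr1 stood at -1.04 in P0 knockout and -0.79 in P0 wild type, but above 0 in both E14.5 libraries, as did Fos. Deep-led barcodes were deeper in E14.5 wild type, with a median of 9967 counts against 7212 in upper-led ones, and the part of depth was not tested. The split used the layer markers relative to their mean at the same age, a choice made after member values by layer had been seen.

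Within the radial glia and astrocyte class, Fos had a lower level in barcodes with cycling markers (Mki67, Top2a and others) than in those without in the 3 libraries with at least 20 barcodes on each side. In P0 knockout it had 2397 CPM in cycling and 3553 CPM in other barcodes, and in P0 wild type 2056 CPM in cycling and 3732 CPM in other barcodes. In the library labelled E14.5 knockout it had 462 CPM in 154 cycling and 609 CPM in 62 other barcodes. E14.5 wild type had 249 CPM in 26 cycling barcodes and 989 CPM in only 10 others, and is given without comparison. The log2 ratio of cycling to other barcodes was -0.57 (-0.66 to -0.48) in P0 knockout, -0.86 (-0.98 to -0.74) in P0 wild type and -0.40 (-0.73 to -0.06) in the library labelled E14.5 knockout. Jun was not uniform, with ratios of -0.62 in P0 knockout, -1.29 in P0 wild type and 0.42 in the library labelled E14.5 knockout. Intermediate progenitors had no common Fos direction. Their Fos ratio was 1.01 (0.78 to 1.25) in P0 knockout, from 30 cycling and 99 other barcodes. In the library labelled E14.5 knockout it was -0.07 (-0.49 to 0.33). Both wild-type libraries had under 20 cycling barcodes in this class and are given without comparison. In P0 wild type Fos had 124 CPM in 12 cycling and 1017 CPM in 63 other barcodes. In E14.5 wild type it had 505 CPM in 15 cycling and 487 CPM in 46 other barcodes. Cycling radial glia were also the deeper ones, with medians of 7864.5 against 5054.5 counts in P0 knockout and 3417 against 2366 in the library labelled E14.5 knockout, and the part of depth was not tested.

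The age difference was large in the radial glia and astrocyte class, whose cells were not the same mix at the 2 ages. In wild type, radial glia and astrocytes had a median log2 ratio of P0 to E14.5 of 2.50 over the 8 genes with at least 30 counts in the pair, and 5 of them were past 2-fold higher, against 13.0% of all genes in that class. In the libraries labelled knockout the median there was 2.35, and 6 of 8 were past 2-fold higher, against 15.1%. Junb had 611 counts in this class of P0 knockout and 278 in P0 wild type but 16 in the library labelled E14.5 knockout and 2 in E14.5 wild type, for log2 ratios of P0 to E14.5 of 4.16 (3.45 to 4.98) in the libraries labelled knockout and 5.48 (3.61 to 8.53) in wild type. Nr4a1 had 337 counts in P0 knockout, 205 in P0 wild type, 8 in the library labelled E14.5 knockout and 3 in E14.5 wild type, for ratios of 4.30 (3.31 to 5.53) in the libraries labelled knockout and 4.45 (2.89 to 6.74) in wild type. Jun, at 0.54 in the libraries labelled knockout and 0.19 in wild type, moved least of the genes with higher levels at P0. The E14.5 wild-type class held 42 barcodes, below the 50 otherwise asked for. The summed marker level of the class differed with age as well. It was 26879 CPM in P0 knockout and 26916 CPM in P0 wild type. At E14.5 it was 8843 CPM in the library labelled E14.5 knockout and 14003 CPM in E14.5 wild type. Barcodes with cycling markers numbered 56 in P0 knockout and 38 in P0 wild type, beside 178 and 97 without them. In the library labelled E14.5 knockout 154 had them and 62 did not, and in E14.5 wild type 26 had them and 10 did not. The part of these differences in the ratios was not tested.

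Projection neurons gave no direction common to the 2 pairs of libraries. In wild type, Fos was 2-fold lower at P0 than at E14.5, with a log2 ratio of -1.02 (-1.34 to -0.70), Egr1 stood at -0.06 and Jun at 0.00. Of 8 genes, 2 were higher and 6 lower at P0, with a median log2 ratio of -0.50. Of these 8, 1 was past 2-fold higher, against 5.51% of all genes, and 1 past 2-fold lower, against 4.22%. In the libraries labelled knockout, by contrast, the median was 0.92, with 6 of 8 genes higher and 2 lower. Fos stood at 1.35 and Egr1 at 1.57 there. Past 2-fold higher were 3 of 8 genes, against 8.44%, and past 2-fold lower was 1, against 8.77%. Whether these differ beyond the spread between animals cannot be tested with 1 mouse each. Jund had an interval below 0 in 4 of 4 classes compared in wild type, from -1.47 to -0.88, and in 5 of 5 in the libraries labelled knockout, from -1.51 to -0.82.

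**Figure D3:**
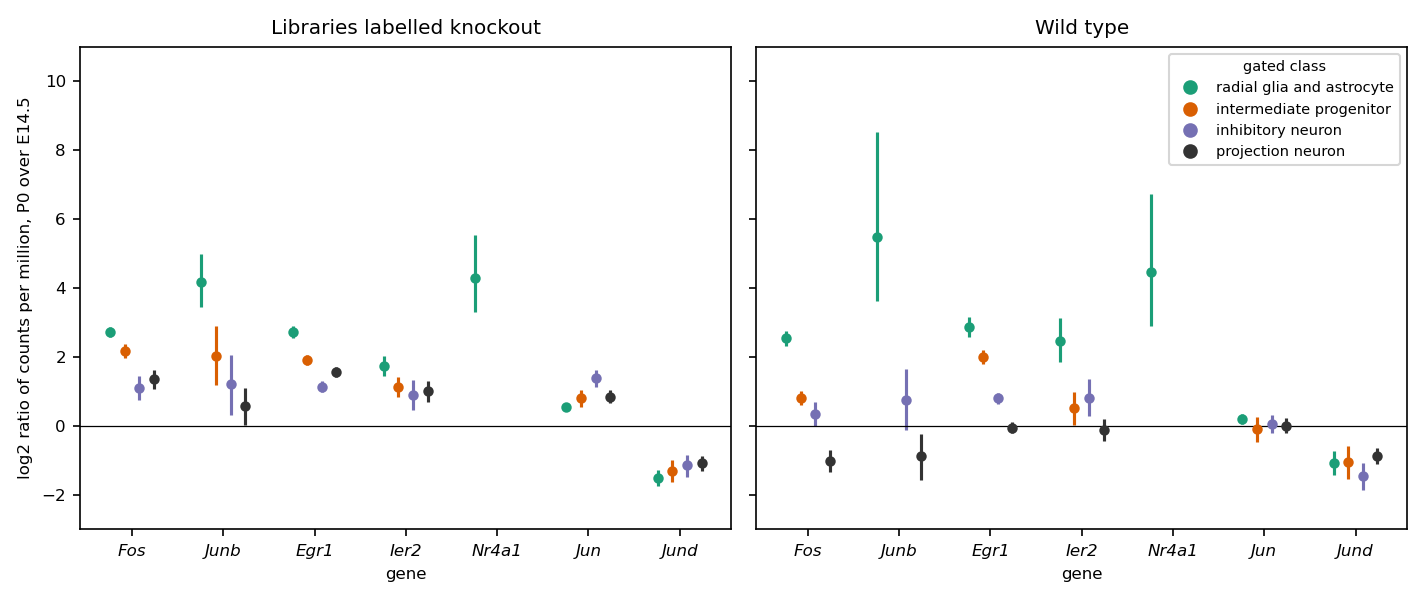
Log2 ratio of P0 to E14.5 for 7 immediate early genes in 4 classes, with the libraries labelled knockout on the left and wild type on the right, and conditional binomial 95% intervals that cover counting error only. Radial glia and astrocytes stand above 0 for Fos, Junb, Egr1, Ier2 and Nr4a1 in both panels, Jund lies below 0 in all 4 classes, and Fos in projection neurons lies on opposite sides of 0 in the 2 panels.

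The knockout comparison was repeated within classes. At P0, radial glia and astrocytes of knockout and wild type were close, with a median log2 ratio of 0.03 over 9 genes, 0 past 2-fold either way, against 3.18% of all genes higher and 1.36% lower, and Fos at 0.03 (-0.03 to 0.09). Small ratios with an interval above 0 were found there for Junb at 0.34 (0.13 to 0.55), Fosb at 0.24 (0.06 to 0.43), Ier2 at 0.21 (0.03 to 0.38) and Egr1 at 0.10 (0.03 to 0.18). Oligodendrocyte precursors had a median of -0.03 and inhibitory neurons of 0.01. Intermediate progenitors had a median of 0.17 over 7 genes, with 1 past 2-fold higher, against 3.89% of all genes, and 0 past 2-fold lower, against 1.75%. That 1 was Junb at 1.16 (0.09 to 2.39), from 39 counts in knockout and 9 in wild type, while Ier2 stood at 0.59 (0.22 to 0.98), Fos at -0.30 (-0.47 to -0.12) and Egr1 at -0.35 (-0.49 to -0.22). Projection neurons had a median of 0.35 over 8 genes with 0 past 2-fold, against 1.41% of all genes higher and 1.32% lower, and Fos at 0.98 (0.65 to 1.32). The barcodes that no gate took had a median of 1.00 over 10 genes, with 5 past 2-fold higher, against 4.70% of all genes, and Fos at 1.32. The P0 difference of the whole libraries was therefore larger than that inside most named classes. Beside it stand the class shares. Projection neurons, low in these genes, were 19.6% of barcodes in P0 knockout and 31.6% in P0 wild type, and oligodendrocyte precursors were 190 of 1436 in knockout and 83 of 1047 in wild type. In the barcodes without a class, radial glia markers stood at 4257 CPM in knockout and 2446 CPM in wild type and microglia markers at 138 CPM in knockout and 3.11 CPM in wild type. The part of these shares and markers in the whole-library ratios was not tested.

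Single genes departed from the class medians at P0. Egr1 was lower in the knockout in inhibitory neurons, at -0.47 (-0.64 to -0.31), with 744 CPM in knockout against 1033 CPM in wild type, and higher in projection neurons, at 0.57. Jun was higher in oligodendrocyte precursors, at 0.61. In microglia, with 45 barcodes in knockout and 21 in wild type, Nr4a1 was lower, at -1.35 (-1.82 to -0.88), from 70 counts in 16 barcodes of the knockout and 91 counts in 13 barcodes of the wild type, and so was Atf3, at -0.58 (-0.87 to -0.30).

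At E14.5 the lower level in the library labelled knockout was present in each class compared except radial glia, and in the barcodes that no gate took. In projection neurons the median log2 ratio was -0.56 over 8 genes, with 2 past 2-fold lower, against 2.75% of all genes in that class. In inhibitory neurons it was -0.81 over 7 genes, with 2 past 2-fold lower, against 2.34%, and in intermediate progenitors -0.68 over 7 genes, with 3 past 2-fold lower, against 2.60%. Choroid plexus had a median of -1.51 over 6 genes, with 4 past 2-fold lower, against 3.51%. The barcodes that no gate took had a median of -0.65 over 8 genes, with 2 past 2-fold lower, against 7.25%. Fos stood at -1.38 (-1.66 to -1.11) in projection neurons and -1.64 (-1.87 to -1.41) in intermediate progenitors, but at -0.15 (-0.40 to 0.11) in radial glia, where the median over 6 genes was 0.02 and the wild type had 42 barcodes. Jun was lower with an interval below 0 in 5 of 5 classes compared, from -1.91 to -0.36, the lowest in choroid plexus with 20 wild-type barcodes. Jund was higher in 4 of the 5, up to 0.31. Ier2 was lower in projection neurons, at -0.82, and higher in radial glia, at 0.93.

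**Figure D4:**
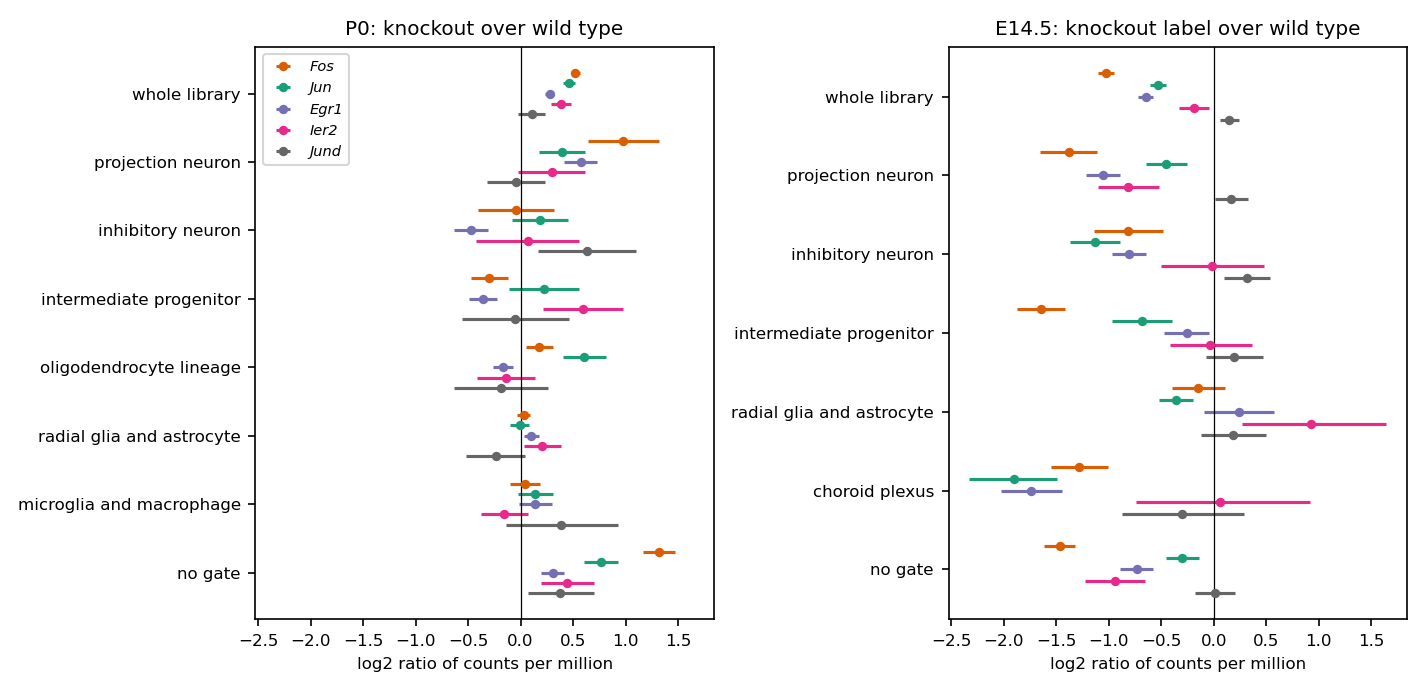
Log2 ratio of the libraries labelled knockout to wild type for Fos, Jun, Egr1, Ier2 and Jund in whole libraries and in classes, at P0 and at E14.5, with conditional binomial 95% intervals that cover counting error only. At P0 radial glia and astrocytes lie near 0 for Fos while the barcodes without a class lie above 1, and at E14.5 Fos lies below -1 in projection neurons and intermediate progenitors and near 0 in radial glia.

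The genes were also counted per barcode, after thinning each barcode to 2000 counts. At least 3 of the 10 genes were detected in 47.7% of barcodes in P0 knockout, 34.4% in P0 wild type, 20.1% in the library labelled E14.5 knockout and 26.1% in E14.5 wild type, with 1027 shallow barcodes left out in the library labelled E14.5 knockout and 2 in each other library. Without thinning the shares were 65.7% in P0 knockout, 53.1% in P0 wild type, 31.0% in the library labelled E14.5 knockout and 61.0% in E14.5 wild type. Among microglia the thinned share was 97.8% in P0 knockout, 95.2% in P0 wild type and 93.9% in the library labelled E14.5 knockout. Among radial glia and astrocytes it was 83.9% in P0 knockout, 76.8% in P0 wild type, 43.9% in the library labelled E14.5 knockout and 47.6% in E14.5 wild type. The share in radial glia and astrocytes was thus higher at P0 than at E14.5, with intervals that did not overlap. Among projection neurons it was 18.8% in P0 knockout, 9.06% in P0 wild type, 11.4% in the library labelled E14.5 knockout and 19.7% in E14.5 wild type. At least 5 of the 10 were found in 86.7% of microglia and 2.84% of projection neurons of P0 knockout.

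**Figure D5:**
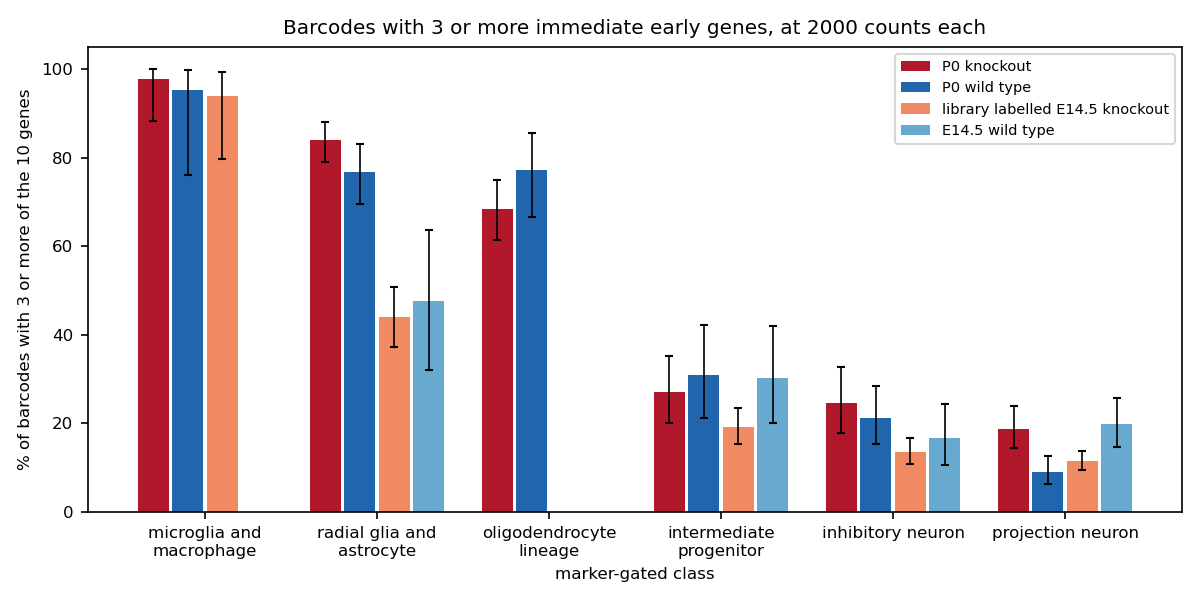
Share of barcodes with at least 3 of the 10 immediate early genes after thinning to 2000 counts, by class and library, in percent from 0, with exact Clopper-Pearson 95% intervals. Microglia lie above 90% in the libraries shown, radial glia and astrocytes lie at 76.8% or more at P0 and below 50% at E14.5, and projection neurons lie below 20% in every library.

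The genes were set against each other in pairs. In radial glia and astrocytes, the share of thinned barcodes with both genes of a pair was above the product of the single shares for 28 of 28 pairs in P0 knockout, 27 of 28 in P0 wild type, 11 of 15 in the library labelled E14.5 knockout and for each of the 10 pairs in E14.5 wild type. Over all pairs of genes found in at least 10 barcodes of the class, the share above the product was 47.7% in P0 knockout, 48.0% in P0 wild type, 48.1% in the library labelled E14.5 knockout and 48.4% in E14.5 wild type. In projection neurons the count was 15 of 21 pairs in P0 knockout, 12 of 15 in P0 wild type, 14 of 21 in the library labelled E14.5 knockout, and in E14.5 wild type it was 16 of 21, against 47.0 to 48.0% of all pairs. The lowest share in the 4 classes read was 9 of 15, in intermediate progenitors of E14.5 wild type, against 49.5% of all pairs. Pairs share genes and barcodes, so these counts are descriptions. In radial glia and astrocytes the median quotient was 1.13 in P0 knockout, 1.14 in P0 wild type, 1.10 in the library labelled E14.5 knockout and 1.29 in E14.5 wild type. Over all barcodes, where classes mix, it was 1.51 in P0 knockout, 1.76 in P0 wild type, 1.65 in the library labelled E14.5 knockout and 1.52 in E14.5 wild type. Free RNA can add to such shares, and its part was not tested. Haemoglobin transcripts, made by red cells, were found in many projection neuron barcodes, 68.1% in P0 knockout, 57.1% in P0 wild type, 56.7% in the library labelled E14.5 knockout and 59.1% in E14.5 wild type. The microglial C1qa, C1qb and C1qc were found in few of them, 0.355% in P0 knockout, 0.604% in P0 wild type, 0.190% in the library labelled E14.5 knockout and 0% in E14.5 wild type. The median depth of these barcodes was 5079.5 in P0 knockout, 4666 in P0 wild type, 3156.5 in the library labelled E14.5 knockout and 7870.5 in E14.5 wild type.

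Other genes of the response were read from lists. Of 33 further early response genes with enough counts, 19 were higher and 14 lower in P0 knockout than in P0 wild type. Their median log2 ratio was 0.10. Past 2-fold higher were 0, against 3.73% of all genes, and past 2-fold lower was 1 (Ccn2), against 1.03%. At E14.5, 16 were higher and 17 lower in the library labelled knockout, and 6 were past 2-fold lower, against 4.22% of all genes, namely Egr2, Ier3, Klf4, Ccn2, Gadd45b and Bdnf, named after their values were seen. From E14.5 to P0, 11 of the 33 were past 2-fold higher in wild type, against 6.16% of all genes, with a median of 0.62, and 11 in the libraries labelled knockout, against 12.9%, with a median of 0.70. Past 2-fold lower were 3 in wild type (Fosl2, Nr4a2, Bdnf), against 5.06% of all genes, and 1 in the libraries labelled knockout (Fosl2), against 6.15%. These were also named after their values were seen. The most counted of the 33 were Rhob, a small GTPase, with 319 CPM in P0 knockout, 281 CPM in P0 wild type, 224 CPM in the library labelled E14.5 knockout and 201 CPM in E14.5 wild type, and Zfp36l1, which destabilises mRNA, with 315 CPM in P0 knockout, 239 CPM in P0 wild type, 194 CPM in the library labelled E14.5 knockout and 155 CPM in E14.5 wild type. The summed level of these further genes was 10659 CPM in the microglia of P0 knockout against 1008 CPM in its projection neurons.

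The 20 kinases and factors upstream of the immediate early genes, such as Creb1, had 0 past 2-fold between knockout and wild type at either age. Their medians were 0.00 at P0 and 0.18 at E14.5. Of all genes, 3.73% were past 2-fold higher and 1.03% lower at P0, and 2.29% higher and 4.22% lower at E14.5. These shares apply to each list compared between knockout and wild type below. Of 12 AP-1 partners and repressors measured, 5 were higher and 7 lower in the knockout at P0, with a median of -0.08, and 5 were higher and 7 lower in the library labelled knockout at E14.5, with a median of -0.07 and Jdp2, named after its value was seen, past 2-fold lower. Of 13 heat shock genes measured between knockout and wild type, the median log2 ratio was 0.01 at P0, with Hspa1a past 2-fold higher and Hspb1 past 2-fold lower, and -0.26 at E14.5, with Hspa1a and Hspb1 past 2-fold lower. Of 12 measured in wild-type age, 10 were lower at P0, with a median of -0.33 and Hsph1 past 2-fold lower, against 5.06%. Of 13 in the libraries labelled knockout, 9 were lower at P0, with a median of -0.35. There Hspa1a and Bag3 were past 2-fold higher, against 12.9% of all genes. Hspa1a, an inducible chaperone named with the others after its value was seen, had 2.70 CPM in P0 knockout, 1.16 CPM in P0 wild type, 0.83 CPM in the library labelled E14.5 knockout and 3.75 CPM in E14.5 wild type. Its log2 ratio of knockout to wild type was 1.22 (-0.04 to 2.68) at P0 and -2.17 (-3.33 to -1.08) at E14.5. The summed heat shock level was 6628 CPM in projection neurons and 4993 CPM in radial glia of P0 knockout. Microglial activation genes such as Ccl3 and Nfkbia were higher at P0 in wild type for 6 of 7 measured, 5 of them past 2-fold, against 6.16% of all genes, and in the libraries labelled knockout for 9 of 9, 8 of them past 2-fold, against 12.9%. These are levels of whole libraries, in which microglia were 3.13% of barcodes in P0 knockout, 2.01% in P0 wild type, 1.17% in the library labelled E14.5 knockout and 2.10% in E14.5 wild type, and the part of these shares was not tested.

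Over 20 library-by-class sums, the genes outside the lists whose log level was most like the mean of the 10 were Cd9, Nim1k, Hepacam, Dio2 and Abcd3, with Pearson's r of 0.95, 0.94, 0.94, 0.94 and 0.94 among 9170 genes. Only classes of at least 50 barcodes entered these sums, so microglia of every library and radial glia of E14.5 wild type were left out. The sums share libraries and depths, so r is a description. Cd9 had 618 CPM in radial glia and astrocytes of P0 knockout, 526 CPM in those of P0 wild type and 50.6 CPM in the library labelled E14.5 knockout, while projection neurons had 43.2 CPM in P0 knockout, 40.4 CPM in P0 wild type and 21.1 CPM in the library labelled E14.5 knockout. Each of the 10 was set against the mean of the other 9 in the same way. Fos, Fosb, Jun, Junb, Ier2 and Nr4a1 had r from 0.86 to 0.88, Egr1 0.78 and Atf3 0.64, whereas Jund stood at -0.40 and Nr4a3 at -0.29.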

How the data were processed

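Single-cell RNA of 4 cortices was read as the deposited whole-number counts per gene and barcode, with 1 library per group. The submitters' processing notes name GRCm39, FastQC 0.12.1, Seurat 5 and R 4.3.2 without their roles; the aligner, the counter and whether reads were collapsed to molecules have no statement in the sources. A barcode was kept from 500 counts and 300 genes upward, with a mitochondrial share of 10% or less (1436 in P0 knockout, 1047 in P0 wild type, 4107 in the library labelled E14.5 knockout and 620 in E14.5 wild type, of 1456, 1073, 4119 and 622 deposited), and their counts were summed and scaled to CPM. The sums held 8894856, 6042033, 14404051 and 5606381 counts. No doublet caller was run.

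A barcode joined a class when its share of counts in that class's markers, divided by the mean share over barcodes, was at least 1 and at least 1.5 times the next class's, from at least 3 counts of at least 2 marker genes; the strict gate doubled the counts and the margin. Classes of at least 50 barcodes were compared, and those of 20 to 49 as an addition made after the data were seen; smaller classes are given as values only. The gate's limits were set after class sizes and leading markers had been seen. The genes, lists and classes were chosen with earlier results of these data known, among them the lower level of these genes in E14.5 neurons of the library labelled knockout, so that pattern is no independent support.

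Intervals are exact Poisson for levels, Clopper-Pearson for shares and conditional binomial for ratios, all at 95% and for counting error only. A count of 0 was set to 3 counts as its upper limit. Ratios across all genes used those with at least 30 counts in the pair, and a call means past 2-fold. The text names all 10 genes, of each other list at most the 4 members with the most counts plus members past 2-fold that are said to be named after their values were seen, and the 5 genes most like their mean, by Pearson's r of log2(CPM + 10) over genes with at least 500 counts. The code for ratios and intervals was checked on simulated counts. The tools were R 4.3.3 with edgeR 4.0.16 (for TMM factors) and Python 3.11.15 with matplotlib 3.10.9, pandas 2.3.3, scipy 1.17.1 and numpy 2.4.6. Alternatives were other scalings, filters, thinning, caps per barcode and class weights.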

Additional observations from a re-analysis of the deposited data

Results flagged for a closer look

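For 7 of the 10 genes the log2 ratio of the library labelled knockout to wild type had opposite signs at the 2 ages. It was above 0 at P0 and below 0 at E14.5, each with an interval that excluded 0. The share of all genes with such opposite signs was not computed. Taken singly, the interval lay above 0 for 21.7% of all genes at P0 and below 0 for 19.4% at E14.5, shares that were not matched for count level. Capped at 3 counts of a gene per barcode, Fos, Jun, Egr1 and Ier2 had E14.5 ratios of 0.10, 0.55, 0.37 and 0.11. The P0 ratio minus the E14.5 ratio was 1.97 for Fosb, 1.59 for Nr4a1, 1.55 for Fos, 1.11 for Junb, 0.99 for Jun, 0.92 for Egr1 and 0.57 for Ier2. This difference was not tested, since each ratio compares 1 mouse with 1 mouse. Beside it stand 74 Tsku counts and 6707 Xist counts in the library labelled E14.5 knockout, against 54 and 3 in E14.5 wild type, so that at E14.5 label, sex and depth cannot be told apart.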

How the results depend on the processing

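With 1 library per group no replicate could be left out. No paired analysis was possible because each group holds 1 library. The P0 median of knockout to wild type stayed between 0.21 and 0.45 with 0 genes past 2-fold under all alternatives run, and the order of microglia, radial glia and projection neurons held under the strict gate in the 3 libraries with at least 20 microglia barcodes. At E14.5 the median was 0.10 with 0 genes past 2-fold at a cap of 3 counts of a gene per barcode, -0.33 with 1 past 2-fold when thinned and capped, and -0.75 with equal weight per class. A cap acts more on deeper barcodes by construction, and the median depth was 2829 counts in the library labelled knockout against 7345.5 in wild type. For age in wild type the median was 0.73 with 3 past 2-fold when capped, 0.62 with 4 when thinned and capped, 1.43 without the barcodes that no gate took, and -0.016 with 1 under equal class weight, which leaves out radial glia (42 barcodes in E14.5 wild type) by construction. For age in the libraries labelled knockout it was 2.27 with TMM factors, 2.28 with size factors, 2.25 thinned, 1.01 with 5 past 2-fold capped, 1.73 thinned and capped, 2.14 without the non-neural gates and 1.36 with equal class weight. The share with at least 3 genes was 33.8, 24.0, 8.52 and 12.3% when thinned to 1000 counts and 65.7, 53.1, 31.0 and 61.0% unthinned, in the order P0 knockout, P0 wild type, library labelled E14.5 knockout and E14.5 wild type. The direction of single genes at E14.5 turned for Nr4a3 at 0.18 when thinned, 0.17 when also capped and 0.036 with equal class weight, for Fos at 0.10, Jun at 0.55, Egr1 at 0.37 and Ier2 at 0.11 when capped, for Ier2 at 0.042 without the barcodes that no gate took, and for Atf3 at 0.17 when thinned, with or without the cap, 0.66 when capped and 1.07 without the non-neural gates. At P0 it turned for Egr1 at -0.065 under equal class weight, and, from main values within counting error of 0, for Nr4a3 at -0.19 without the barcodes that no gate took and for Atf3 at 0.63 when thinned, 0.35 when capped, 0.31 with both and 0.43 without the non-neural gates. Under equal class weight it turned for Fosb at -0.080, Jun at -0.016 and Junb at -0.25 in wild-type age. The cause of these turns was not tested beyond what the alternatives' construction shows. Of the gene values, 378 kept within counting error, 128 moved and 12 turned with a main interval that excluded 0. Depth limits what can be read of Nr4a1, Nr4a3 and Atf3, which had under 100 CPM in each library.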

Other observations

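Meningeal fibroblast-like and endothelial-like barcodes were too few at P0 for a comparison but carried immediate early transcripts too. Fos had 1982 CPM in the 14 fibroblast-like barcodes of P0 knockout, 1545 CPM in the 6 of P0 wild type, 400 CPM in 103 in the library labelled E14.5 knockout and 1029 CPM in 14 in E14.5 wild type. Junb had 633 CPM in the 17 endothelial-like barcodes of P0 knockout, 466 CPM in the 16 of P0 wild type and 203 CPM in the 36 of the library labelled E14.5 knockout. Cajal-Retzius-like barcodes, early-born neurons of the marginal zone, had a summed level of the 10 genes of 756 CPM over 60 barcodes of the library labelled E14.5 knockout, beside 784 CPM in its projection neurons. The choroid plexus-like barcodes had 920 CPM over 133 barcodes in the library labelled E14.5 knockout and 2463 CPM over 20 barcodes in E14.5 wild type.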
